A study of Gallus gallus with 71 samples.

Results

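ENSGALG00010003368 is a chicken gene known in the deposited table only by its Ensembl identifier, and a block of other genes moved with it across punches of the broiler hypothalamus. The block was chosen by the measured values themselves: on log2(CPM + 1), where CPM is the count divided by the library total and multiplied by 1000000, a gene was kept when its Pearson r with ENSGALG00010003368, called the anchor gene here, was at least 0.7 over all 71 libraries. Genes entered if their CPM was above 1 in at least 4 libraries. Of 30108 genes in the table, 20363 passed that filter and 42 were members, the anchor gene included. Because r chose the members, their r values are a description, and whether the members moved with the anchor gene is no finding. Members share much of the anchor gene's direction through that choice. Counts of members by sign, overlap or call below are therefore not independent of each other or of the anchor gene.

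The libraries came from Hubbard x Cobb-500 chicks that had been either incubated at 37.5 °C throughout (control) or exposed to 39.5 °C for 12 h a day from embryonic day 7 to 16 (embryonic heat conditioning, EHC). On day 4 after hatch, chicks of both treatments entered an acute challenge at 36 °C and were sampled at hour 0, before it began, and at hours 2 and 12. Punches of 3 areas were sequenced: the PVN (paraventricular nucleus), the POAH (preoptic area with anterior hypothalamus) and the nCPa (nucleus of the hippocampal commissure). The 3 areas, 3 hours and 2 treatments made 18 groups of 4 libraries, except that EHC PVN at hour 12 had 3, for 36 control and 35 EHC libraries. Each treatment had its own incubator before the shared hatcher, so treatment and incubator cannot be told apart. The punches of an area came from separate chicks, but each chick gave punches of all 3 areas and the labels used here do not name the chick, so comparisons between areas ignored that link unless stated.

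In birds and mammals the POAH holds temperature-sensing neurons that set heat loss and heat production. The PVN holds the neurons that release corticotropin-releasing hormone and so start the pituitary and adrenal stress response, and in birds the nCPa is known as a further site of stress-responsive neurons of that kind. None of the 42 members carried a symbol in the sources used here, and 0 of them matched the reference gene table, so no function is given for any member. The study called the anchor gene and 5 more of the members protein-coding. Reads that could not be placed uniquely were dropped before counting, so counts of genes with near-identical copies depend on which reads could be told apart. Whether members share sequence was not tested.

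Library totals ran from 910033 to 9370799 counts with a median of 4157783. The anchor gene had between 66 and 1399 counts in a library, so counting error was small beside the spread between chicks. Of the 71 libraries, 5 went against their sex label by the summed level of 63 genes that were female-limited at hours 0 and 12. All 5 were from hour 2: EHC replicate 1 of each area, control PVN replicate 3 and control POAH replicate 3. The EHC libraries among them were labelled male but read as female (library numbers 67 to 69). The control libraries were labelled female but read as male (numbers 70 and 72). Whether their treatment labels were also exchanged was not tested. The comparisons that use hour 2 were refitted without these 5 libraries. The 8 libraries listed last in the series also stood apart in depth: 7 of them held 7003701 to 9370799 counts and the eighth 5515296, while no other library was above 6277932. They were replicate 4 of both treatments in the nCPa at hours 0 and 2 and the POAH at hour 12, of EHC PVN at hour 0 and of control PVN at hour 12. Their summed second run was 3546 to 6987 CPM, against a median of 1934 CPM in the other 63. Without these 8 libraries the rule gave 49 members, which included all 42. Replicates were numbered in accession order.

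The members lay in 3 runs of the table plus 2 lone genes. The first run held 14 members, among them the anchor gene, from ENSGALG00010003258 to ENSGALG00010003429, within 24 consecutive rows (28894 to 28917). The second run held 20 members from ENSGALG00010003540 to ENSGALG00010003648 within 48 rows (28950 to 28997). The third run was 6 consecutive rows (2204 to 2209) holding ENSGALG00010007820 to ENSGALG00010007827. ENSGALG00010002378 (row 28835, r = 0.84) and ENSGALG00010027307 (row 26579, r = 0.72) stood alone.

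The table listed its genes in 84 stretches of rising identifiers, and a single stretch of 424 rows held 35 of the 42 members, namely the first run, the second run and ENSGALG00010002378. In that stretch 243 genes passed the filter, and the 208 that were not members had a median r of 0.107 with the anchor gene. Among them 18 had an r above 0.5, whereas over all genes that were not members the median was -0.022 and 108 (0.531%) lay above 0.5. Row position was not used by the rule. Row order was not matched to chromosome positions here, so the runs are neighbours in the table and in identifier only.

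An identifier inside the range of the first run did not place a gene in it. ENSGALG00010003358, which the study pairs with DNAJC15, a mitochondrial DnaJ co-chaperone, sat at row 872 and had an r of -0.05. Within the 24 rows of the first run, 10 genes were not members. Of these, 7 were under the filter, and the other 3 had r between -0.12 and -0.06. The first run was thus a set of 14 genes with r of at least 0.92 among neighbours that were low or unrelated.

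**Figure D1:**
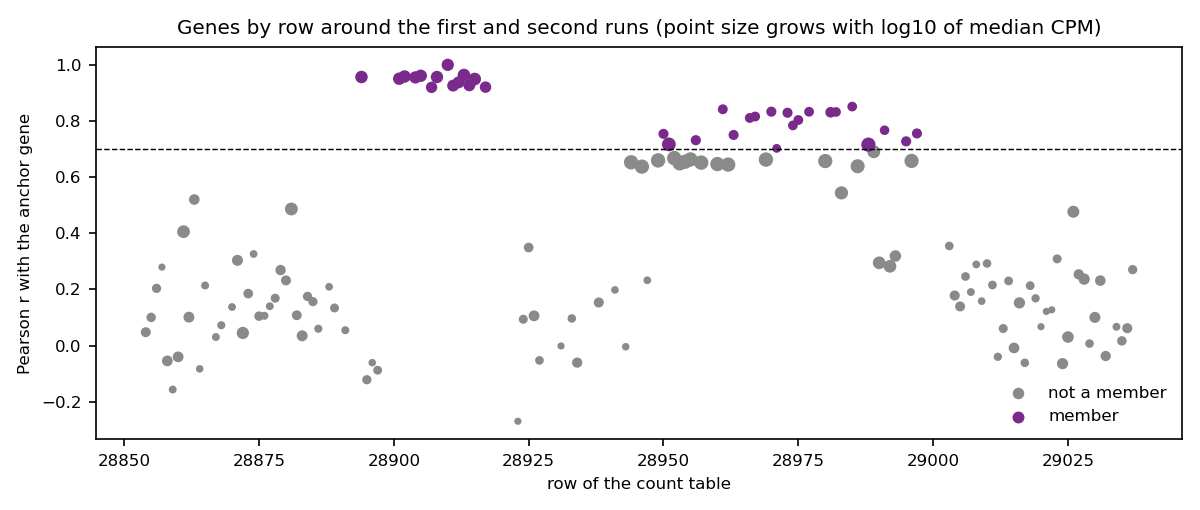
Pearson r with the anchor gene (vertical axis) by row of the count table (horizontal axis) around the first and second runs. Purple points are members, grey points are other genes that passed the filter, point size grows with median CPM, and the dashed line is the threshold of 0.7. The first run stands above 0.9 at rows 28894 to 28917. The second run sits among large grey points, most of them just under the threshold.

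The second run was mixed with other genes of high level. Of its 28 rows that were not members, 16 passed the filter and had r between 0.28 and 0.69 with a median of 0.65. All but 1 of them had a median above 100 CPM, and those 15 summed to between 3483 and 118464 CPM in a library, with a median of 16275 CPM. Of the 20 members there, 18 were low, with medians of 2.12 to 15.4 CPM. ENSGALG00010003542 and ENSGALG00010003629 were the exceptions, with medians of 687 and 1267 CPM, and they made up 84.8% to 98.6% of the sum of the second run in a library. Across the second run, the threshold therefore did not separate low from abundant genes, since 2 members were abundant. Most abundant neighbours had an r slightly under the threshold, but some were well below it, down to 0.28.

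Inside the threshold the 5 lowest members were ENSGALG00010007824 (r = 0.705), ENSGALG00010007820 (0.704), ENSGALG00010007822 (0.703), ENSGALG00010003593 (0.702) and ENSGALG00010007823 (0.702). Just outside lay ENSGALG00010003633 (0.690), ENSGALG00010001680 (0.687), ENSGALG00010007813 (0.684), ENSGALG00010007814 (0.681) and ENSGALG00010026904 (0.678). ENSGALG00010003633 belonged to the rows of the second run, and ENSGALG00010007813 and ENSGALG00010007814 lay 5 and 4 rows before the third run. ENSGALG00010004520, an lncRNA that the study lists beside the anchor gene for the POAH at hour 2, had an r of only 0.31 and was not a member.

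The highest r values all belonged to the first run. They were ENSGALG00010003401 (0.964), ENSGALG00010003324 (0.961), ENSGALG00010003294 (0.958), ENSGALG00010003258 (0.957), ENSGALG00010003351 (0.957), ENSGALG00010003311 (0.955), ENSGALG00010003287 (0.951), ENSGALG00010003420 (0.949), ENSGALG00010003395 (0.937) and ENSGALG00010003408 (0.927). Between members, the median r was 0.928 inside the first run, 0.837 inside the second and 0.931 inside the third. It was 0.811 between the first and second runs, 0.637 between the first run and the third, and 0.535 between the second run and the third. The block was thus tighter within runs than between them, and the third run followed the others least.

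With the group means taken off every gene, all 14 members of the first run still had an r of at least 0.7 with the anchor gene, against 10 of the second run and 0 of the third. The first run kept all 14 members in nCPa, POAH and PVN libraries taken alone. The third run did so only in the POAH, where all 6 of its genes passed (r of 0.85 to 0.91), against 0 in the nCPa and 0 in the PVN. In the nCPa their r was 0.61 to 0.69, just under the threshold, and in the PVN 0.45 to 0.58.

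Counts of member pairs were then compared directly, by the spread over libraries of the ratio of the 2 counts relative to counting noise, where 1 means that counting alone accounts for it. Inside the first run the genes fell into sets, a grouping made after the values were seen and so given with no test. ENSGALG00010003346, ENSGALG00010003377, ENSGALG00010003395 and ENSGALG00010003408 kept their ratios within counting noise, with values of 0.75 to 0.94 over their 6 pairs. ENSGALG00010003258, ENSGALG00010003287, ENSGALG00010003294, ENSGALG00010003311, ENSGALG00010003324, ENSGALG00010003351, ENSGALG00010003401 and ENSGALG00010003420 gave 0.90 to 4.55 over 28 pairs, with a median of 2.02. Between those 4 and those 8 genes the values were 9.83 to 18.2.

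The anchor gene belonged to neither set. Its values were 4.19 to 5.13 with the 4 genes and 7.33 to 12.6 with the 8 genes, and 5.79 with ENSGALG00010003429, the last member of the run. This measure grows with the counts, so a value near 1 carries less for low genes such as those of the third run, whose 15 pairs gave 0.63 to 1.11. The 190 pairs of the second run ranged from 0.65 to 132.

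**Figure D2:**
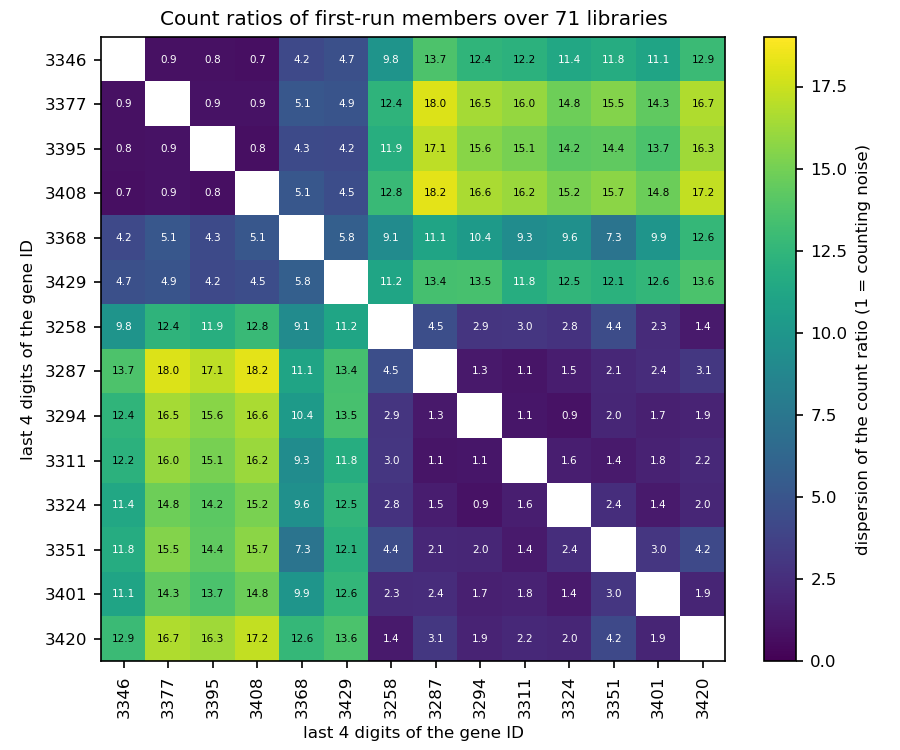
Dispersion of the count ratio over 71 libraries for each pair of the 14 members of the first run, where 1 is counting noise. Axes give the last 4 digits of each identifier. A dark square of 4 genes (0.75 to 0.94), a dark square of 8 genes (0.90 to 4.55) and pale values between them (9.83 to 18.2) can be seen, with the anchor gene and the last member of the run apart from both.

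The ratio of the 4 genes to the 8 genes therefore varied while both sums rose and fell together (r = 0.87 between the log2 sums). On the log2 scale the ratio of the sums ran from -3.07 to -1.46 with a median of -2.11. It was lowest in EHC nCPa at hour 12, where the 4 libraries lay between -3.07 and -2.94. Control nCPa libraries of that hour lay between -2.73 and -2.39 and did not overlap with them. This group was singled out after the values were seen, and the difference was not tested.

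In bulk punches, more cells of a type and more RNA per cell cannot be told apart, and this holds for every level below. Over all libraries the anchor gene ranged from 27.9 to 359 CPM, with a median of 98.4 CPM. Of its variance on the log2 scale, 62.2% lay between the 18 groups, against a median of 28.9% over all genes and 51.0% over the members. The study listed the anchor gene as differing between groups of these samples, and the members follow it. Shares above that of all genes therefore come in part from the choice. The group means ran from 49.7 to 258 CPM, a 5.20-fold range.

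The highest group was EHC POAH at hour 2, with 258 ± 72.7 CPM (SD, n = 4 here and in all groups but EHC PVN at hour 12). Control POAH at hour 12 followed with 195 ± 56.4, then EHC nCPa at hour 2 with 162 ± 61.6 and control PVN at hour 12 with 149 ± 31.3 CPM. Below them came EHC POAH at hour 0 (131 ± 39.2 CPM), control nCPa at hour 0 (125 ± 18.8), EHC PVN at hour 0 (124 ± 32.1) and control PVN at hour 2 (107 ± 74.0). No single area, hour or treatment made up the upper part of this order.

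The lower part began with EHC PVN at hour 2 (98.8 ± 60.6 CPM), control POAH at hour 0 (98.8 ± 25.9), EHC nCPa at hour 12 (88.9 ± 23.2), control PVN at hour 0 (83.8 ± 43.3) and control nCPa at hour 2 (81.2 ± 27.7). It ended with control POAH at hour 2 (73.8 ± 17.8 CPM), EHC nCPa at hour 0 (70.2 ± 10.8), EHC POAH at hour 12 (59.3 ± 34.3), EHC PVN at hour 12 (52.6 ± 5.68, n = 3) and control nCPa at hour 12 (49.7 ± 25.6). All 17 pairs of neighbours in this order overlapped within 1 SD. The POAH thus supplied both the highest EHC group (hour 2) and one of the lowest (hour 12).

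**Figure D3:**
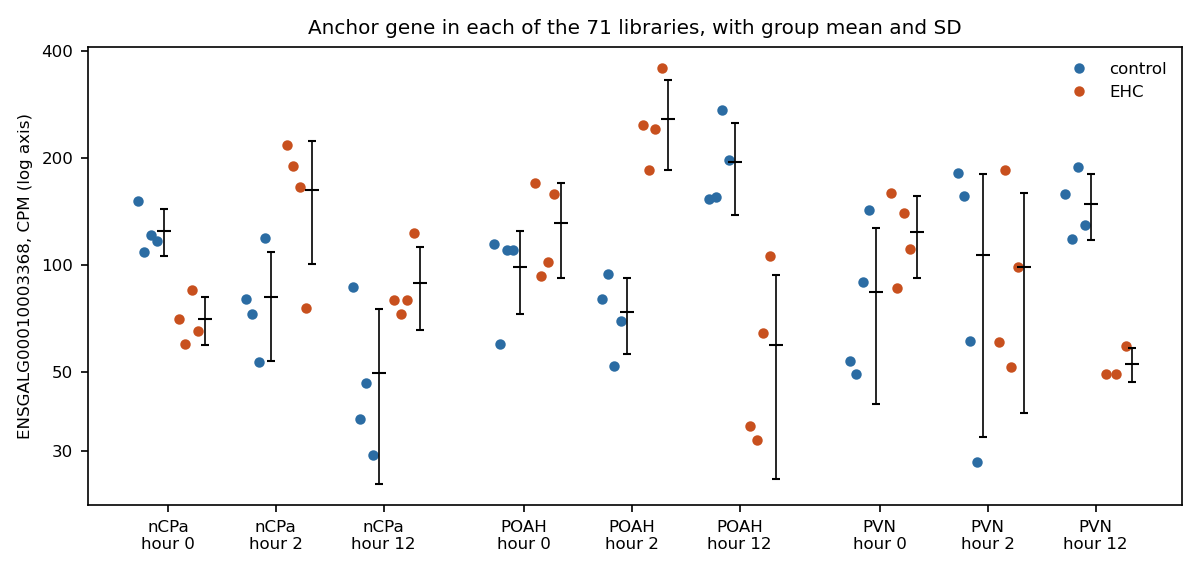
Level of the anchor gene (CPM) in each of the 71 libraries, by area and hour, with control and EHC libraries side by side and the mean and SD of each group. EHC libraries lie above control in the POAH at hour 2 (185 to 359 against 51.8 to 94.2 CPM) and below it in the POAH and the PVN at hour 12.

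Across libraries the anchor gene had an r of -0.26 with the log2 library total, -0.23 with the number of genes detected and -0.12 with the summed 11 mitochondrial mRNAs. With the summed 5 connective tissue genes that the study names (MGP, SERPINF1, MFAP5, TIMP2 and CHAD, which encode matrix or secreted proteins) r was 0.36. In most libraries TIMP2 made up most of that sum, for example 181 of 231 CPM in EHC POAH hour 0 replicate 1. In EHC POAH hour 2 replicate 4 it was 325 of 2055 CPM. These are descriptions over 71 libraries that share chicks, and no test was made. Other cell type markers could not be matched to identifiers.

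The question of the study was whether EHC changed expression in each area and hour. In the POAH at hour 2, every member had a positive fitted fold change of EHC over control. The anchor gene stood at 247, 185, 241 and 359 CPM in the EHC libraries and at 80.0, 94.2, 51.8 and 69.4 CPM in the control libraries. The groups did not overlap. Its log2 fold change was 1.88 (SE 0.28), with an adjusted p of 0.11 (edgeR quasi-likelihood, Benjamini-Hochberg over all 20363 genes), which missed the threshold of 0.1. Here and below, an SE beside an edgeR fold change was derived, since that test gives none. It is the size of the log2 fold change divided by the square root of the F statistic. The study listed the anchor gene and 5 other members of the first run for this comparison on these samples. The 5 were ENSGALG00010003346, ENSGALG00010003377, ENSGALG00010003395, ENSGALG00010003408 and ENSGALG00010003429. The values of the anchor gene and of these 5 here are a description and not independent evidence.

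By run, the median log2 fold change in the POAH at hour 2 was 1.87 in the first run, 2.03 in the second and 1.96 in the third, against 0.01 over all genes. The 2 lone genes were lower, at 1.13 for ENSGALG00010002378 and 0.48 for ENSGALG00010027307. ENSGALG00010003346, also listed by the study for this comparison, illustrates the first run. It had 74.5 to 140.1 CPM in EHC and 20.8 to 43.5 CPM in control libraries. The sum over the third run was 122.6, 141, 149 and 322 CPM in EHC and 51.2, 58.9, 28.7 and 48.7 CPM in control libraries. Of the 42 members, 39 had groups that did not overlap, all higher in EHC and 14 of them in the first run, where 1.33% of all genes did so in that direction. The members follow the anchor gene by the rule, so they are not separate evidence.

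With edgeR 0% of all genes and 0 members were called in the POAH at hour 2, while all 42 members had an unadjusted p under 0.05, as did 7.85% of all genes. That share of all genes is not given for any other comparison. Counts of members with an unadjusted p under 0.05 elsewhere therefore do not show whether the block stood out from other genes. The lack of edgeR calls differs from the study, whose own fits listed genes for this comparison, the anchor gene among them. The stated rule of the study was also another one. It asked for an FDR of at most 0.1 in both edgeR and DESeq2 and for a minimum fold change. Its genes were limited to lncRNA, protein-coding and pseudogene entries, with a further filter on a level scaled by gene length. Why the fits differ was not tested. DESeq2 called 41 members, all higher, where it called 1.27% of the genes it tested as higher. Without EHC replicate 4, the library with the highest anchor level, 22 members were called by edgeR, and the anchor gene had a log2 fold change of 1.64 with an adjusted p of 0.043. That library was also the shallowest of its group (1370531 counts) and held 2055 CPM of the 5 connective tissue genes, against 196 to 256 CPM in the other EHC libraries and 137 to 182 CPM in control libraries. Without EHC replicate 2 there were 17 members called and without control replicate 2 there were 15. Here and below, the share of all genes called is not given for fits that leave libraries out. Their counts of members therefore do not show whether the calls were particular to the block. Without the 2 POAH libraries against their sex label, 0 members were called by edgeR, the anchor gene stood at 1.62 (SE 0.37) and its adjusted p was 0.81.

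Depth moved with treatment in this comparison. EHC libraries of the POAH at hour 2 held 1370531 to 3173834 counts and control libraries 4888023 to 6099027. The 5 connective tissue genes, taken from genes that the study lists as higher in EHC for this comparison on these samples, had positive fold changes, a direction fixed by that choice. Their median was 2.16 on the log2 scale with 0 called, and 0.60 without EHC replicate 4. The 11 mitochondrial mRNAs had a median of 0.30. The part of these differences in the result was not tested, apart from the value without EHC replicate 4 above.

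In the POAH at hour 12 the direction was the opposite. The anchor gene stood at 35.1, 32.0, 64.3 and 106 CPM in the EHC libraries and at 153, 155, 274 and 198 CPM in the control libraries. Again the groups did not overlap. The log2 fold change was -1.71 (SE 0.42) with an adjusted p of 0.88 by edgeR, so it was not called. All 42 members had a negative fold change (median -1.72, against -0.01 over all genes), which follows in part from how they were chosen.

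Members without overlap in the POAH at hour 12 numbered 20, all lower in EHC, among them all 14 of the first run, where 1.52% of all genes were lower without overlap. With edgeR 0% of genes and 0 members were called, and 37 members had an unadjusted p under 0.05, a count given without the share of all genes. DESeq2 called 16 members as lower, 13 of them in the first run, where it called 0.19% of the genes it tested as lower. The second run was wider: its sum ranged from 488 to 4944 CPM in EHC and from 1473 to 8004 CPM in control libraries, with overlap. Control replicate 3, the shallowest library of its group (1580930 counts), had the highest anchor level, as EHC replicate 4 had at hour 2.

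The change of direction between the hours was tested as an interaction over the 24 POAH libraries. The EHC effect at hour 2 minus that at hour 12 was 3.56 on the log2 scale (SE 0.52) for the anchor gene, with an adjusted p of 0.0018 by edgeR. Of all genes 0.231% were called, and 0.196% were called as higher. Among these 40 higher genes were 22 members: all 14 of the first run, all 6 of the third, and ENSGALG00010003568 and ENSGALG00010003648 of the second. The smallest adjusted p among members was that of ENSGALG00010003429 (3.56, SE 0.50, adjusted p = 0.0014), followed by ENSGALG00010003395 and the anchor gene. The study had listed all of these for the POAH at hour 2 on these samples.

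ENSGALG00010003429 shows the crossing in its levels, although the study had listed it for hour 2, so that hour is a description. At hour 2 it stood at 99.6, 64.5, 104 and 153 CPM in EHC and at 29.2, 35.4, 24.9 and 24.8 CPM in control libraries. At hour 12 it stood at 17.2, 20.9, 20.2 and 28.9 CPM in EHC and at 55.7, 39.4, 107 and 70.3 CPM in control libraries. Neither pair of groups overlapped.

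In the third run the interaction was 3.50 to 3.81 on the log2 scale. ENSGALG00010007823 had the smallest adjusted p of that run (3.62, SE 0.58, adjusted p = 0.0038 by edgeR). In the second run all 20 members lay between 3.09 and 4.24, but their spread was larger and only 2 were called. The lone genes were at 1.86 (ENSGALG00010002378) and 1.09 (ENSGALG00010027307) and were not called.

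Leaving out each of the 16 POAH libraries of hours 2 and 12 in turn left 19 to 42 members called and the anchor gene at 3.30 to 4.00, past the threshold in 16 of 16 fits. The count of 42 came without EHC hour 12 replicate 4 and a count of 36 without control hour 12 replicate 2. Without the 2 POAH libraries against their sex label, 20 members were called, all 14 of the first run among them, and the anchor gene stood at 3.38 with an adjusted p of 0.024. Without the 8 libraries listed last, 40 members were called and the anchor gene stood at 3.97 with an adjusted p of 0.00080. The interaction rests in part on hour 2, for which the study listed the anchor gene and 5 other members. The 5 connective tissue genes, whose direction at hour 2 was fixed by how they were chosen, had a median interaction of 4.16 with 1 called. Without EHC hour 2 replicate 4 that median was 1.17 and without control hour 12 replicate 4 it was 3.08, with 0 called in either fit. Their part in the result was not tested.

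Other interactions passed the threshold for 0 members and 0% of all genes with edgeR. For hour 2 minus hour 0 in the POAH, the anchor gene stood at 1.51 (24 members with an unadjusted p under 0.05, 0 called by DESeq2). For hour 12 minus hour 0 it was -2.06 with an adjusted p of 0.55 by edgeR and 0.074 by DESeq2, which called 13 members (36 with an unadjusted p under 0.05 by edgeR). At hour 2, the EHC effect in the POAH minus that in the nCPa was 0.87 for the anchor gene, with 0 members at an unadjusted p under 0.05 and 0 called by DESeq2. The EHC effect in the POAH minus that in the PVN was 1.98, with 34 members at an unadjusted p under 0.05 and 5 called by DESeq2, all in the third run. For interactions, the shares of all genes called by DESeq2 or with an unadjusted p under 0.05 are not given. These counts therefore do not show whether the differences were particular to the block. Without the libraries against their sex label, the anchor gene stood at 1.07 for the POAH minus the nCPa, 1.93 for the POAH minus the PVN and 1.33 for hour 2 minus hour 0. Members at an unadjusted p under 0.05 then numbered 1, 29 and 11, and edgeR called 0 in each. An EHC effect particular to the POAH at hour 2 was thus not shown by the edgeR fits.

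The PVN at hour 12 was the comparison between treatments in which members passed edgeR's threshold. The anchor gene stood at 49.3, 49.4 and 59.2 CPM in the 3 EHC libraries and at 158, 119, 189 and 129.8 CPM in the 4 control libraries. The EHC libraries all lay below the control libraries and close together. Its log2 fold change was -1.52 (SE 0.17), with an adjusted p of 0.013 by edgeR. The study listed no gene at all for this comparison, under its own gene filter and a rule that asked for both edgeR and DESeq2. The edgeR calls below did not need a DESeq2 call, and they differ from its result. The reason for that difference was not tested.

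In all, 11 members fell in EHC PVN at hour 12 and 0 rose. Of all genes 0.25% were called there in either direction, and 0.152% (31 genes) as lower, so the members made up 11 of the 31. Since members follow the anchor gene by the rule, these calls are not independent of each other. Of the 11, 9 were in the first run: the anchor gene and the 8 genes whose ratios lay close together. The smallest adjusted p values were those of ENSGALG00010003258 (-1.80, SE 0.12, adjusted p = 0.0011), ENSGALG00010003420 (-1.80, SE 0.12, adjusted p = 0.0011) and ENSGALG00010003294 (-1.81, SE 0.13, adjusted p = 0.0015).

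ENSGALG00010003258 stood at 52.3, 53.7 and 69.4 CPM in EHC and at 196, 178, 229.9 and 198 CPM in control libraries. ENSGALG00010003420 was at 64.0, 64.4 and 82.1 CPM in EHC and at 237, 211, 277 and 233 CPM in control libraries. Both genes were therefore at about the same low level in all 3 EHC libraries. The 2 members called in the second run were its 2 abundant ones, ENSGALG00010003542 (-2.29, SE 0.37, adjusted p = 0.074) and ENSGALG00010003629 (-1.87, SE 0.26, adjusted p = 0.030).

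ENSGALG00010003542 ranged over 179.6 to 459 CPM in EHC and over 761 to 2468 CPM in control libraries. ENSGALG00010003629 ranged over 429.6 to 783 CPM in EHC and over 1562 to 3097 CPM in control libraries. The whole block had negative fold changes in this comparison, with medians of -1.76 in the first run, -1.42 in the second and -1.15 in the third, against a median near 0 over all genes. DESeq2 called 23 members as lower, where it called 0.926% of the genes it tested as lower, and 31 members, all 14 of the first run among them, were lower without overlap, as were 3.68% of all genes.

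The calls in the PVN at hour 12 depended on the libraries and on the estimate of spread. Leaving out 1 library at a time left 8 to 19 members called, with 19 without control replicate 2. The adjusted p of the anchor gene was 0.13, 0.12 and 0.22 without EHC replicates 1, 2 and 3, while its log2 fold change stayed between -1.62 and -1.38. With the spread estimated over all PVN libraries, 0 members were called by edgeR and the anchor gene stood at -1.62 with an adjusted p of 0.76. All 11 mitochondrial mRNAs had negative fold changes there (median -0.86), and their part in the result was not tested.

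**Figure D4:**
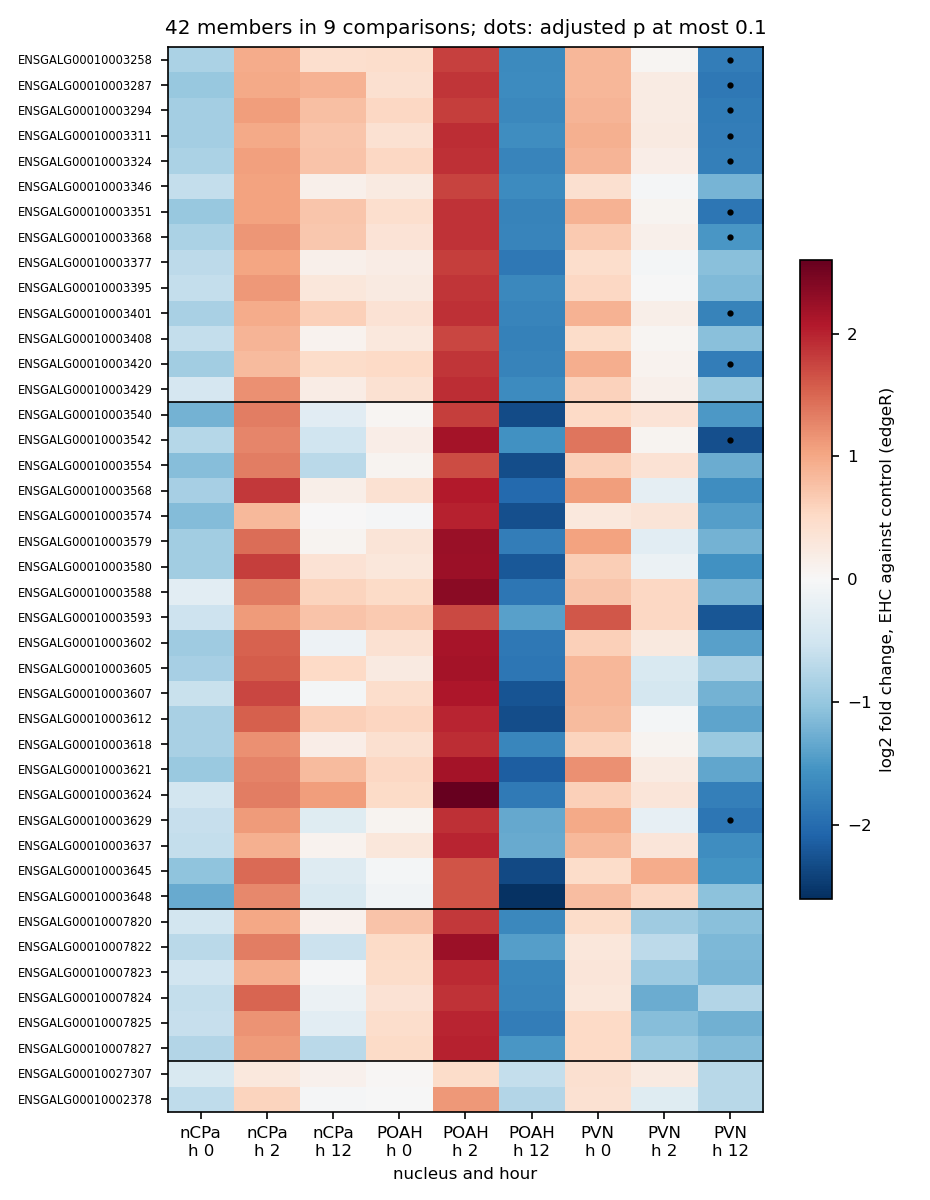
Fitted log2 fold change of EHC against control (colour, edgeR) for each of the 42 members (vertical axis, grouped by run) in the 9 combinations of area and hour (horizontal axis). Dots mark an adjusted p of at most 0.1. The 11 dots are all in the PVN at hour 12, and the columns of the POAH at hours 2 and 12 have opposite colours.

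In the nCPa all 42 members had negative fold changes at hour 0 and positive ones at hour 2, and edgeR called none of them. At hour 0 the anchor gene stood at 70.5, 60.03, 85.1 and 65.2 CPM in EHC and at 152, 109, 122 and 117 CPM in control libraries. The groups did not overlap, and EHC minus control was -0.81 on the log2 scale (SE 0.13), not past the threshold (adjusted p = 0.96 by edgeR). Members lower without overlap numbered 18, of which 10 were in the first run, against 1.08% of all genes. With edgeR 0% of genes and 0 members were called, and 29 members had an unadjusted p under 0.05. DESeq2 called 3 members as lower, all in the first run, where it called 0.0147% of the genes it tested, 3 genes in all, so they were its only lower calls.

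At hour 2 the anchor gene stood at 218, 190.4, 166 and 75.6 CPM in EHC nCPa and at 80.0, 72.5, 53.1 and 119 CPM in control nCPa. EHC replicate 4 lay within the control range, so the groups overlapped. On the log2 scale EHC was 1.14 above control (SE 0.28), with an adjusted p of 0.30 by edgeR. With edgeR 0 members were called and 37 had an unadjusted p under 0.05. DESeq2 called 14 members as higher, where it called 0.485% of the genes it tested as higher, and 7 members, all of the second run, were higher without overlap, as were 0.997% of all genes. Without the nCPa library against its sex label the anchor gene stood at 1.04 with an adjusted p of 0.51.

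EHC replicate 4 of the nCPa at hour 2 was a library apart in other measures too. It held 7879120 counts, against 2027294 to 2774912 in the other EHC libraries, and 1077 CPM of the 5 connective tissue genes, against 173 to 230 CPM in the other EHC libraries and 158 to 256 CPM in control libraries. Without it the anchor gene stood at 1.36 (SE 0.22) with an adjusted p of 0.14 by edgeR, and 0 members were called. The part of its depth and connective tissue level in the result was not tested.

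At hour 12 the nCPa gave no common direction. The anchor gene stood at 79.7, 72.8, 79.7 and 123 CPM in EHC and at 86.5, 36.7, 46.4 and 29.1 CPM in control libraries, with overlap through control replicate 1. Its log2 fold change was 0.70 (SE 0.31, adjusted p = 0.48 by edgeR). All 14 members of the first run had positive fold changes (median 0.55), whereas the median was 0.08 in the second run and -0.21 in the third. With edgeR 0.00491% of genes (1 gene) and 0 members were called, 6 members had an unadjusted p under 0.05, and DESeq2 called 0 members. The study, with its own rule and gene filter, listed far more genes for this comparison than edgeR called here. The reason for that gap was not tested.

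Control replicate 1 decided the count at hour 12 in the nCPa. Without it 4 members were called and the anchor gene stood at 1.09 (SE 0.20, adjusted p = 0.084 by edgeR). The summed mitochondrial mRNAs were 9193 CPM in that library, 40827 to 68170 CPM in the other 3 control libraries and 11837 to 18578 CPM in EHC libraries. Their part in the result was not tested.

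The remaining comparisons of treatments were the POAH at hour 0 and the PVN at hours 0 and 2. In the POAH at hour 0 the anchor gene stood at 171, 93.3, 102 and 159 CPM in EHC and at 114, 60.0, 110.4 and 110.3 CPM in control libraries, with overlap and a log2 fold change of 0.35 (SE 0.26). There edgeR called 0% of genes and 0 members, 0 members had an unadjusted p under 0.05, and DESeq2 called 0. In the PVN at hour 0 it stood at 159, 86.0, 140 and 111 CPM in EHC and at 53.5, 49.3, 89.7 and 143 CPM in control libraries. These groups overlapped, with a log2 difference of 0.68 (SE 0.30) and an adjusted p of 0.96 by edgeR. All 42 members had positive fold changes in the PVN at hour 0, with medians of 0.86 in the first run, 0.81 in the second and 0.40 in the third.

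Of the second run, the sum in the PVN at hour 0 was 2896 to 4839 CPM in EHC and 1140 to 2495 CPM in control libraries, without overlap. That sum follows the 2 abundant genes of the run. Among the members, 2 were higher without overlap in the PVN at hour 0, against 1.25% of all genes. There edgeR called 0% of genes and 0 members, and 19 members had an unadjusted p under 0.05. DESeq2 called 2 members, both of the second run, where it called 0.709% of the genes it tested as higher. It gave only 3386 genes an adjusted p there, against 14833 to 20352 in the other treatment comparisons with a DESeq2 share.

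In the PVN at hour 2 the libraries of both treatments were widely spread. The anchor gene stood at 60.7, 184, 51.7 and 98.4 CPM in EHC and at 182, 157, 61.1 and 27.9 CPM in control libraries. Its log2 fold change of 0.13 (SE 0.41) was within that spread, and its sign changed without EHC replicate 2, EHC replicate 4 or control replicate 4. There edgeR called 0% of genes and 0 members, 1 member had an unadjusted p under 0.05, and DESeq2 called 0. The third run had a median of -0.95 on the log2 scale, with all 6 of its genes negative (-1.30 to -0.69), against 0.10 in the first run and 0.23 in the second. Without the 2 PVN libraries against their sex label, 5 members of the first run were called as higher and the anchor gene stood at 0.73 with an adjusted p of 0.26.

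**Figure D5:**
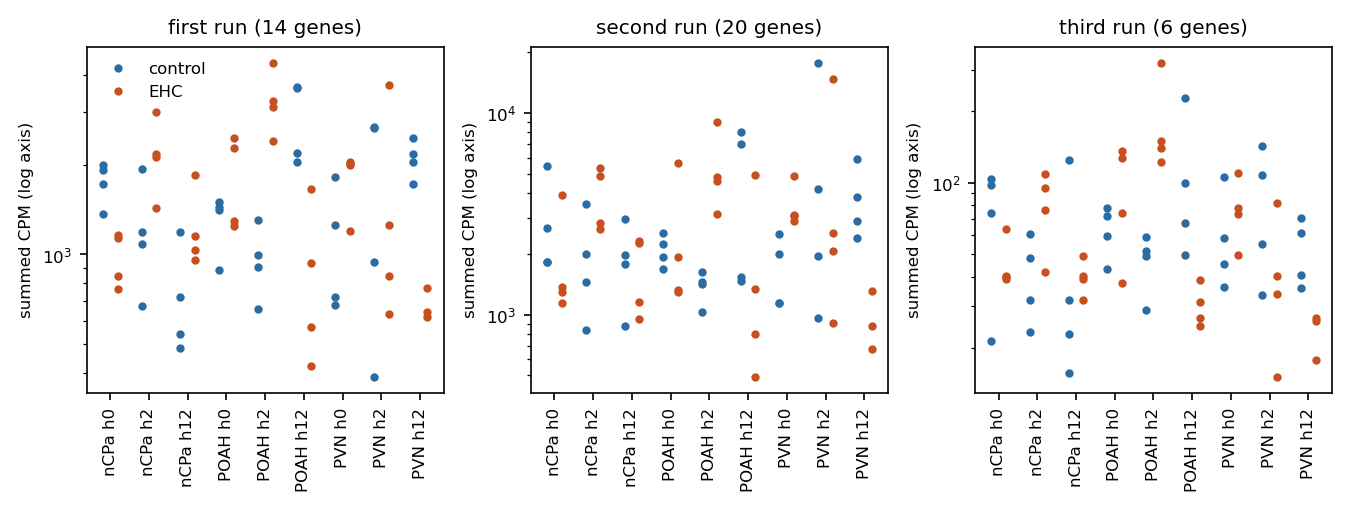
Summed CPM (log axis) of the first run (14 genes), the second run (20 genes) and the third run (6 genes) in every library, by area and hour, with control in blue and EHC in orange. The sum of the second run is mostly that of its 2 abundant genes. In the POAH at hour 2 all 3 sums lie higher in EHC without overlap, and in the PVN at hour 12 all 3 lie lower in EHC without overlap.

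Without the 8 libraries listed last, edgeR called 0 members in the nCPa at hours 0 and 2, the POAH at hour 12 and the PVN at hour 0, where the anchor gene stood at -0.78, 1.48, -2.13 and 0.66 in that order. The PVN at hour 12 then had 11 members called, 10 of them in the first run, and the anchor gene stood at -1.60.

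An exact permutation test of the anchor gene's log2(CPM + 1), two-sided, was also made for the 9 comparisons. It reached the smallest p possible for 4 libraries against 4, 0.029, in the nCPa at hour 0, the POAH at hour 2 and the POAH at hour 12. With 4 against 3 in the PVN at hour 12 it gave 0.029, also the smallest possible. Adjusted over the 9 comparisons these became 0.064. The others were 0.086 (nCPa at hour 2), 0.11 (nCPa at hour 12), 0.29 (POAH at hour 0), 0.20 (PVN at hour 0) and 0.94 (PVN at hour 2). The permutation test used no sex term. The study had listed the anchor gene for the POAH at hour 2 on these samples. Its permutation p there, also counted in the adjustment over the 9 comparisons, is therefore a description.

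Hours were compared within each area over both treatments. Members passed the threshold of edgeR only for hour 12 against hour 0 in the nCPa, where 0.0196% of all genes (4 genes) were lower at hour 12. Of these 4, 3 were members of the second run: ENSGALG00010003605 (-1.97, adjusted p = 0.092), ENSGALG00010003624 (-1.95, adjusted p = 0.098) and ENSGALG00010003607 (-1.81, adjusted p = 0.098). All 42 members had negative fold changes there, with medians of -1.72 in the second run, -0.34 in the first and -0.29 in the third. DESeq2 called 19 members, 16 of them of the second run, but with treatment as a term edgeR called 0, as it did without the 8 libraries listed last. The share of all genes that DESeq2 called is not given for comparisons of hours. Its counts there do not show whether the calls were particular to the block.

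Comparing hours 12 and 2 in the nCPa, edgeR called 0% of genes and 0 members, 28 members had an unadjusted p under 0.05 and DESeq2 called 21. The second run had a median of -2.20 on the log2 scale and the first -0.74. In the POAH and the PVN, and between hours 2 and 0 in the nCPa, edgeR called 0% of genes and 0 members and DESeq2 0 members in every comparison of hours. At most 6 members had an unadjusted p under 0.05 in any of those. Without the libraries against their sex label, edgeR called 0 members in all 6 comparisons that use hour 2, with 26 members at an unadjusted p under 0.05 between hours 12 and 2 in the nCPa, 7 between hours 2 and 0 in the POAH, 1 between hours 12 and 2 in the PVN and 0 in the other 3. These fits pooled both treatments, and in the POAH the fitted EHC effect had opposite signs at hours 2 and 12. The part of pooling in these counts was not tested.

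For the POAH against the nCPa, all 42 members had positive fold changes (median 0.51), 16 of them with an unadjusted p under 0.05. In that comparison 4 members of the first run were called as higher in the POAH, where 3.85% of all genes were: ENSGALG00010003346 (0.54), ENSGALG00010003429 (0.54), ENSGALG00010003395 (0.54) and ENSGALG00010003377 (0.53), with adjusted p of 0.079 to 0.096 by edgeR. DESeq2 called 6 members, 5 of the first run and 1 of the second. The count was 7 without the libraries against their sex label, 5 with the library number as a block, 0 with no filter on low counts and 0 without the 8 libraries listed last. For the PVN against the nCPa, 0 members were called by edgeR where 20.2% of all genes were, with 2 members at an unadjusted p under 0.05 and 2 called by DESeq2. For the PVN against the POAH it was 0 members where 8.28% of all genes were called, with 0 at an unadjusted p under 0.05 and 0 by DESeq2. Without the libraries against their sex label these counts were 2 for the PVN against the nCPa and 0 for the PVN against the POAH. For areas, too, the shares of all genes called by DESeq2 or with an unadjusted p under 0.05 are not given.

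For female against male, edgeR called 0 members in the nCPa (3.21% of all genes called), the POAH (8.08%) and the PVN (4.42%), and DESeq2 called 0. Members at an unadjusted p under 0.05 numbered 9 for the nCPa, 1 for the PVN and 0 for the POAH. The third run had positive fold changes in the POAH (median 0.38) and the PVN (median 0.49), and the first run negative ones (median -0.20 and -0.45), none of them called. In the nCPa both runs had negative fold changes (median -0.29 in the third and -0.38 in the first). Without the libraries against their sex label edgeR called 0 members in each area, with 5 at an unadjusted p under 0.05 in the nCPa and 0 in the others. Without the 8 libraries listed last the median of all members in the POAH was 0.06, in place of -0.22, again with 0 called.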

How the data were processed

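Stranded total RNA libraries were made after removal of ribosomal RNA, and the authors trimmed reads with Trimmomatic 0.39, aligned them with HISAT2 to GRCg7b, kept unique alignments with SAMtools 1.10, removed duplicates and counted reads per gene with featureCounts. The deposited values are raw read counts per gene in 71 libraries, and their columns were matched to samples by library name. The members and gene lists were chosen with earlier results of these data known.

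CPM used the library total, and genes with CPM above 1 in at least 4 libraries were kept. Differences were tested on the counts with edgeR 4.0.16 in R 4.3.3 (quasi-likelihood, TMM scaling, labelled sex as a covariate, Benjamini-Hochberg adjusted p of at most 0.1 over 20363 genes), fitted on the groups compared, with DESeq2 1.42.0 as an alternative. The scripts were tested on simulated data, with 100 genes changed by 1 and 100 by 2 on the log2 scale. Of the genes changed by 1, edgeR called 29 in the POAH at hour 2, 31 at hour 12 and 9 for the interaction of those hours. It called 70 in the PVN at hour 12 and 79 between hours 12 and 0 in the nCPa. Of the genes changed by 2 it called 92, 96, 73, 97 and 100 in that order. The changed genes were drawn only from genes above a floor of mean count. Their simulated spread followed the trend with level, with no spread particular to a gene. Recovery was therefore not measured for genes under that floor or with a spread above the trend. A lack of edgeR calls is limited by this recovery, which can be lower for real members. In the POAH at hour 2 DESeq2 made 36 false calls and edgeR 9, and at hour 12 it was 26 and 15. For the POAH interaction of hours 2 and 12 it was 33 and 12, between hours 12 and 0 in the nCPa 35 and 10. In the PVN at hour 12 both made 16. Counts of members called by DESeq2 alone carry that limit. The share of all genes called by DESeq2 is given only for comparisons of treatments, so its other counts of members stand without it. Alternatives were DESeq2 size factors in edgeR, library totals, no filter, no sex term, all libraries of an area in the fit, and each library left out. Fits without the 5 libraries against their sex label, without the 8 libraries listed last and with the library number as a block between areas, the leave-one-out fits of the interaction and DESeq2 for the interactions were added after the data were seen.

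The genes named in the text were the anchor gene, the genes that the study lists for the POAH at hour 2 with neighbouring identifiers and ENSGALG00010004520, the 10 members with the highest r and the 5 with the lowest, the 5 genes just under the threshold, and up to 3 called members with the smallest adjusted p per comparison and direction. ENSGALG00010003358, the lone members, ENSGALG00010003287, ENSGALG00010003568 and ENSGALG00010003648 were named after their values were seen. Among the fixed marker lists, only 5 connective tissue genes and 11 mitochondrial mRNAs could be matched to identifiers. No sequence was printed, since no reference entry matched a member.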

Additional observations from a re-analysis of the deposited data

Results flagged for a closer look

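In groups of 4 libraries, 1 library stood far from the other 3 in 11 of 68 sets of values examined, where chance gives about 1 in 20. That share is only a guide here, since the first run includes the anchor gene and the areas share chicks, so the sets are not independent. For the anchor gene these were EHC nCPa hour 12 replicate 4, at 123.3 CPM against 72.8 to 79.7 in the others, and control POAH hour 0 replicate 2, at 59.99 CPM against 110.3 to 114.4. The same control library stood apart in the sum of the first run (885 CPM against 1413 to 1502), as did EHC PVN hour 0 replicate 2 (1196 CPM against 2004 to 2036).

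In the sum of the second run, the libraries that stood apart were all high. They were EHC POAH hour 0 replicate 1 (5674 CPM against 1293 to 1929), EHC PVN hour 0 replicate 4 (4839 CPM against 2896 to 3127), EHC PVN hour 2 replicate 2 (14715 CPM against 912 to 2548) and EHC nCPa hour 0 replicate 4 (3904 CPM against 1142 to 1366). In the sum of the third run they were EHC POAH hour 2 replicate 4 (322 CPM against 123 to 149), EHC nCPa hour 0 replicate 2 (63.9 CPM against 38.9 to 40.3) and control nCPa hour 12 replicate 1 (125 CPM against 15.6 to 32.0). Of these, EHC PVN hour 0 replicate 4 and EHC nCPa hour 0 replicate 4 were among the 8 libraries listed last. The causes were not tested.

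The EHC effect differed between hours 2 and 12 in the POAH. For the anchor gene the difference was 3.56 on the log2 scale by edgeR, higher in EHC in 4 of 4 libraries at hour 2 and lower in 4 of 4 at hour 12. The same interaction called 22 members, all among the 40 genes (0.196% of all genes) that it called as higher. Members follow the anchor gene by the rule, so these calls are not independent of each other or of the anchor gene. The study had listed the anchor gene and some other members for the POAH at hour 2 on these samples. The part of the interaction that comes from hour 2 is therefore not independent evidence.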

How the results depend on the processing

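The number of members was 76 at an r of at least 0.6, 25 at an r of at least 0.8 and 25 with the group means taken off. Leaving out 1 library at a time gave 0 to 4 members called in the nCPa at hour 12 (anchor gene 0.50 to 1.09 on the log2 scale) and 0 to 22 in the POAH at hour 2 (1.64 to 2.10). In the PVN it gave 0 members at hour 2 (anchor gene -0.20 to 0.52) and 8 to 19 at hour 12 (-1.62 to -1.38). For the POAH interaction it gave 19 to 42 (3.30 to 4.00).

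DESeq2 called 3 members in the nCPa at hour 0 (anchor gene -0.82), 14 at hour 2 (1.12), 41 in the POAH at hour 2 (1.91), 16 at hour 12 (-1.71), 2 in the PVN at hour 0 and 23 at hour 12. It called 19 between hours 12 and 0 and 21 between hours 12 and 2 in the nCPa, 2 for the PVN against the nCPa, 5 for the POAH minus the PVN at hour 2, 42 for hour 2 minus hour 12 and 13 for hour 12 minus hour 0 (anchor gene -2.06) in the POAH. With no filter edgeR called 34 in the nCPa at hour 2 (anchor gene 1.14), 27 in the POAH at hour 2 (1.87) and 31 at hour 12 (-1.70), 3, 2 and 24 in the PVN at hours 0, 2 and 12, 6 between hours 12 and 2 in the nCPa and 0 for the POAH against the nCPa. Apart from the DESeq2 shares given above, the share of all genes called in these fits is not given. The counts therefore do not show whether the calls were particular to the block.

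In the POAH at hour 2, library totals gave 7 members (anchor gene 1.81), no sex term 18 (1.86) and the spread over all POAH libraries 4 (1.87). In the PVN the spread over all libraries gave 0 members at hour 12 (anchor gene -1.62) and turned the anchor gene to -0.073 at hour 2, as no sex term did (-0.11). Between hours 12 and 0 in the nCPa, DESeq2 size factors in edgeR gave 1 member and a treatment term 0, and between hours 12 and 2 that term gave 4. Without the libraries against their sex label there were 5 members in the PVN at hour 2, 2 for the PVN against the nCPa and 7 for the POAH against the nCPa. The share of all genes called in these fits is not given either, and the causes of these differences were not tested. Without the 8 libraries listed last there were 40 members for hour 2 minus hour 12 in the POAH, 0 between hours 12 and 0 in the nCPa and 0 for the POAH against the nCPa. Between treatments and between hours no paired analysis was possible because different chicks were compared and the replicate letters mark whole groups. Between areas, most library numbers fell in runs of 3 that shared treatment, hour and labelled sex, with 1 of each area, and were used as a replicate block. Numbers 16 and 17 (control, hour 0) and 160 and 161 (EHC, hour 12) had no PVN library in their run. Number 60, a control PVN library of hour 0, was alone in its run. With that block edgeR called 5 members for the POAH against the nCPa and 0 for each of the other pairs of areas. The numbers need not name a chick: in 1 such run of control libraries at hour 2, the POAH and PVN libraries went against their sex label and the nCPa library did not. The lowest counts of the anchor gene were 66 in a library, so depth limited the low members of the later runs more than the anchor gene.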
